A study of Mus musculus with 6 samples.

Results

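The mitochondrial genome transcripts are the RNAs copied from the small circular genome that each mitochondrion carries, and they were taken here as every gene of the deposited table whose mouse symbol begins with mt-. This gave 35 genes of the 26789 listed, namely 2 ribosomal RNAs, 13 protein genes and 20 transfer RNAs. The annotation holds 37 mitochondrial genes, and the remaining tRNA genes, mt-Tv and mt-Th, are not among the genes listed. The levels came from microglia, the immune cells that live in the brain, of the rostral nucleus of the solitary tract (NST), the first brain relay for taste, of C57Bl/6 mice at P15. There were 3 control libraries, whose dams and pups were given standard chow. The 3 E3–E12 diet libraries came from offspring of dams given low-sodium chow and distilled water during E3–E12, and standard chow and tap water afterwards. Each library pooled tissue of 6 littermates and stood for 1 litter. The question was whether the maternal diet altered gene expression in these cells shortly before terminal fields are normally pruned. By the study's methods the cells were sorted with magnetic beads against CD11b and the RNA was amplified, whereas the sample labels give laser microdissection, another RNA kit and longer reads.

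Mitochondrial DNA is transcribed from both strands into long precursor RNAs that run through many genes. The tRNAs lie between most of the other genes and are cut out, which frees the rRNAs and the mRNAs. The rRNAs build the mitochondrial ribosome, the tRNAs carry amino acids to it, and the mRNAs encode core subunits of the respiratory chain (complexes I, III and IV) and of ATP synthase (complex V). All other proteins of the mitochondrion are encoded in the nucleus, among them the enzymes that copy and transcribe mitochondrial DNA. Microglia, like other cells, use this chain to make ATP by oxidative phosphorylation.

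Short genes, genes that overlap and genes with near-identical nuclear copies set what a gene count can mean for these transcripts, and the sequences below show one case of each kind. Positions are those of the GENCODE annotation on GRCm38, 1-based, read 5′ to 3′ on the strand of the gene. Mitochondrial genes have no introns. The first sequences are the whole tRNA genes that passed the filter on low values, mt-Tl1 (leucine, chrM:2676-2750, plus strand), mt-Ts1 (serine, chrM:6870-6938, minus strand) and mt-Te (glutamate, chrM:14071-14139, minus strand). They are 75, 69 and 69 bases long, and the capitals mark the anticodon.
mt-Tl1: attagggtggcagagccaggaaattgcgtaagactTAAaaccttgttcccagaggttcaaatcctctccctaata
mt-Ts1: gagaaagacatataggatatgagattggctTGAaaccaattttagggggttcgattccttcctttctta
mt-Te: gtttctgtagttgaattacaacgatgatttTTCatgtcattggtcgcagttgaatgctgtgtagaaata
Next is mt-Atp8 (chrM:7766-7969, plus strand), whose last 43 of 204 bases, in capitals, are also the first bases of mt-Atp6.
mt-Atp8: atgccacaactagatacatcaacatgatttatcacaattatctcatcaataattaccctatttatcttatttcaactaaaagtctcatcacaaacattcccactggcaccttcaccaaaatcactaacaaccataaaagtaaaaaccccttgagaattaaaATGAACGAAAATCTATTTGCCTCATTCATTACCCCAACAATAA
The last sequences are mt-Nd4l (chrM:9877-10173) and the first 297 bases of mt-Nd3 (chrM:9459-9755), both on the plus strand. A nuclear pseudogene on chromosome 1, Gm10222, matched mt-Nd4l over 294 aligned bases with 0 differences. Another, Gm28438, matched mt-Nd3 over 345 aligned bases with 1 difference, at position 3 from the gene's 5′ end, shown as a capital.
mt-Nd4l: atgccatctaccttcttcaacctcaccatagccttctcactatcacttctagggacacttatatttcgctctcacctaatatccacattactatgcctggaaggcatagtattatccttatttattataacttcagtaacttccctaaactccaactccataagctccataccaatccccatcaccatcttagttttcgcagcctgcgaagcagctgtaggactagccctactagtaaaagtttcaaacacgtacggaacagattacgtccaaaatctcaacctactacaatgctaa
mt-Nd3: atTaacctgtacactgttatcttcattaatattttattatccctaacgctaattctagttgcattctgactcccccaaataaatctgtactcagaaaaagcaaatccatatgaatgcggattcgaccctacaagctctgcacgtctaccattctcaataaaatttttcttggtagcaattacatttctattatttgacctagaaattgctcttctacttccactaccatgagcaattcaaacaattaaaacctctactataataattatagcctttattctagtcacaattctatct

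Values are normalized counts. The study's methods give a range for the reads sequenced per sample, but the number of counted reads behind each library is not known. The totals ran from 9407141 to 17204618 normalized counts per library. Control replicate 2 had the highest total and the most genes listed at 0, with 10640 against 3459 to 7135 in the other libraries, so results are also given without it where it decided them. All 10 microglial marker genes were listed, summing to between 1.003% and 2.79% of a library, and the sum was lowest in control replicate 1 and E3–E12 diet replicate 1. Markers of the choroid plexus summed to between 0.000127% and 0.423%, highest in E3–E12 diet replicate 1. Oligodendrocyte markers summed to between 0.0345% and 0.328%, highest in control replicate 1. Control replicate 2 was highest in neutrophil markers, at 0.0175% against 0.00327% to 0.00628% in the other libraries, and lowest in endothelial markers, at 0.0264% against 0.0671% to 0.110%. Their part in the results below was not tested. In pooled tissue or cells, fewer cells of a type and less RNA per cell cannot be told apart.

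Mitochondrial transcripts took a large and variable part of every library, and their share differed between diets by less than the spread between litters. They held 15.5%, 6.69% and 18.5% of all counts in the controls, given here and below in the order of replicates 1 to 3. Under the E3–E12 diet the share was 13.8%, 10.2% and 23.0%. The lowest share was in control replicate 2 and the highest in E3–E12 diet replicate 3, and the groups overlapped. The means were 13.6% ± 6.14 in controls and 15.7% ± 6.56 in E3–E12 diet mice (SD, n = 3 libraries each), a difference of 2.12 percentage points (exact permutation test, two-sided, p = 0.8, adjusted p = 1 over 4 shares, the smallest p that 3 against 3 allows being 0.1). The direction of this difference rested on single libraries, since it was -1.32 points without control replicate 2 and -1.52 points without E3–E12 diet replicate 3.

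Most of that share was rRNA. The 12S rRNA mt-Rnr1 (chrM:70-1024) and the 16S rRNA mt-Rnr2 (chrM:1094-2675) build the small and the large subunit of the mitochondrial ribosome. Together they held 11.7%, 4.07% and 15.1% of the counts in controls against 8.05%, 7.46% and 15.8% under the E3–E12 diet, with means of 10.3% ± 5.67 and 10.4% ± 4.67 (exact permutation p = 1, adjusted p = 1). The difference of 0.14 points was -2.98 points without control replicate 2 and -2.55 points without E3–E12 diet replicate 3. mt-Rnr1 had 382799, 240611 and 702900.5 normalized counts in controls 1 to 3 against 289529, 271048 and 769966 under the E3–E12 diet. mt-Rnr2 had 748969.7, 459417 and 1101111 in controls against 467418, 564066 and 1550437 under the E3–E12 diet. Both rRNAs were highest in replicate 3 of each group, and the groups overlapped.
The protein genes held a smaller part that varied less among the controls. Their sum was 3.80%, 2.61% and 3.34% of the counts in controls against 5.78%, 2.78% and 7.13% under the E3–E12 diet. In the plot of shares, replicate 2 of the E3–E12 diet lies among the controls while replicates 1 and 3 lie above them. The means were 3.25% ± 0.598 and 5.23% ± 2.23, a difference of 1.98 points (exact permutation p = 0.3, adjusted p = 0.6). It stayed above 0 with any single library left out, between 1.03 points without E3–E12 diet replicate 3 and 3.20 points without E3–E12 diet replicate 2. The tRNAs held between 0.00216% and 0.00593% of a library (exact permutation p = 0.2, adjusted p = 0.6).

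**Figure D1:**
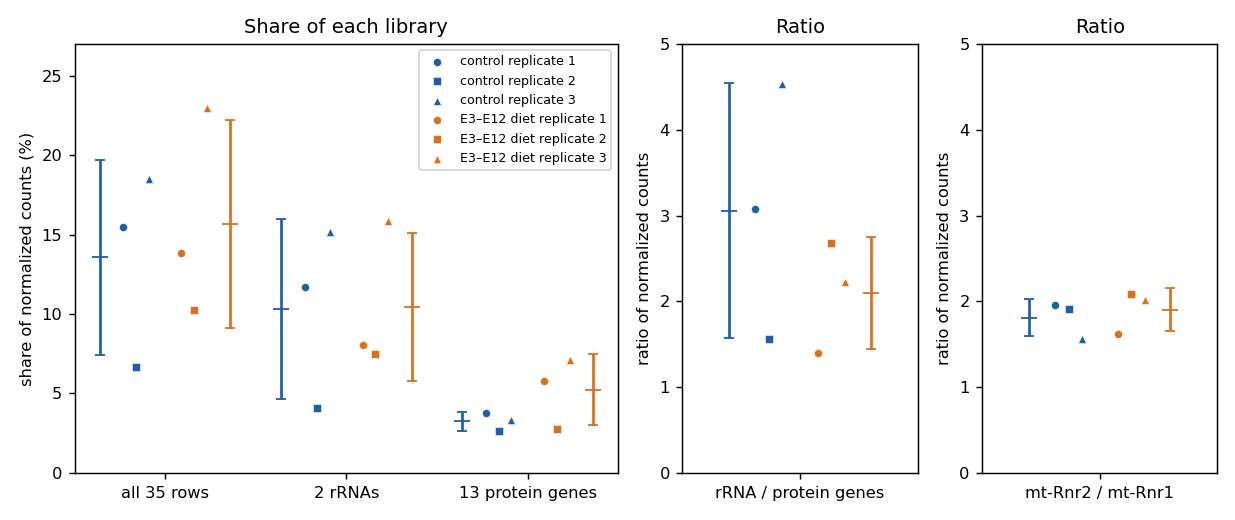
Left, share of the normalized counts of each library (%) held by all 35 genes, the 2 rRNAs and the 13 protein genes; middle and right, ratio of rRNA to protein gene counts and of mt-Rnr2 to mt-Rnr1. Points are libraries, horizontal marks and bars are the mean and SD of the 3 libraries of a diet group, and the groups overlap in every panel.

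Ratios within a library do not depend on how the libraries were scaled to each other if each library has a single scaling factor. That was not so for these values, of which at most 33.7% per library were whole multiples of 1 step. The ratios and shares within a library may therefore depend on the normalization. The sum of the rRNAs was 3.08, 1.56 and 4.53 times that of the protein genes in controls 1 to 3 against 1.39, 2.68 and 2.22 times under the E3–E12 diet. The mean log2 ratio was 0.46 lower in E3–E12 diet mice, with overlapping groups (log2 difference -0.46, exact permutation p = 0.4, adjusted p = 0.75 over 3 ratios). It was -0.88 without control replicate 2, -0.19 when E3–E12 diet replicate 1 was left out and -0.11 without control replicate 3. The rRNAs lie side by side on 1 precursor, with a single tRNA gene between them, and were close to equal per length. mt-Rnr2 per base over mt-Rnr1 per base was 1.18, 1.15 and 0.946 in controls against 0.975, 1.26 and 1.22 under the E3–E12 diet. Without correction for length the ratio spanned only 1.57 to 2.08, and the log2 difference between diets was 0.07 (exact permutation p = 0.5, adjusted p = 0.75).

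**Figure D2:**
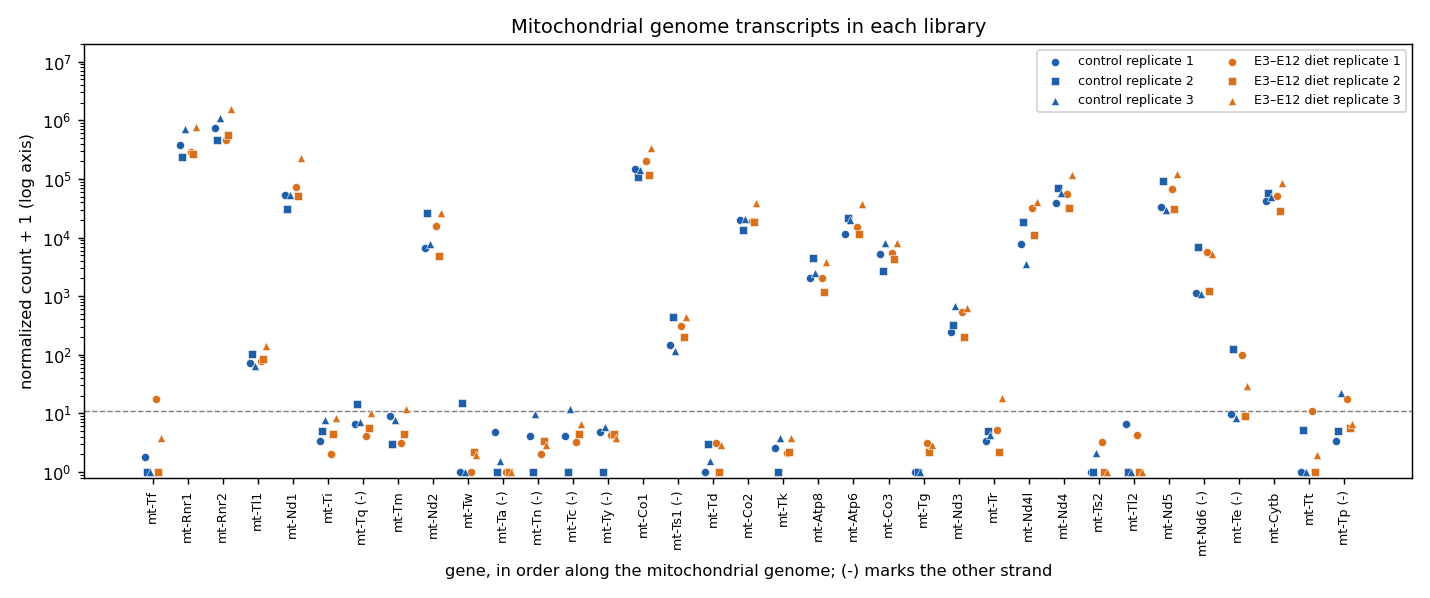
Normalized count + 1 (log axis) of the 35 genes in each of the 6 libraries, in genome order, with genes on the minus strand marked by (-); the dashed line is a normalized count of 10. The rRNAs lie highest, the protein genes spread between 203 (mt-Nd3) and 338479 (mt-Co1), and most tRNAs lie near or under the line.

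The level per length differed widely among the 13 protein genes although most of them share 1 precursor. As the mean over the 6 libraries of normalized counts per kilobase of gene, mt-Co1 was highest at 113378, followed by mt-Nd1 at 84458 and mt-Nd4l at 63575. mt-Cytb at 45593, mt-Nd4 at 44889, mt-Nd5 at 34049.8, mt-Co2 at 31999.8 and mt-Atp6 at 28695 formed the middle of the order. mt-Nd2 at 13922, mt-Atp8 at 13209, mt-Co3 at 7219, mt-Nd6 at 6788 and mt-Nd3 at 1247 were lowest. Each gene varied between libraries by 2.90-fold (mt-Co2) to 11.6-fold (mt-Nd4l), so neighbours in this order overlapped in their ranges, except mt-Nd6 and mt-Nd3. The rRNAs stood above all of them in each library, at 515320.1 for mt-Rnr2 and 463674 for mt-Rnr1 per kilobase.
Reads from several protein genes cannot be told apart from those of nuclear copies, which are stretches of mitochondrial DNA that were inserted into chromosomes. Every 50-base window of mt-Co2 also occurred in an annotated gene outside the mitochondrial genome (100%), as did 99.9% of the windows of mt-Co3, 99.5% of mt-Atp6, 98.8% of mt-Nd4l and 98.0% of mt-Nd3. The share was 62.2% for mt-Nd4 and 51.1% for mt-Co1, 8.19% for mt-Nd2, 7.61% for mt-Nd5 and 0% for mt-Nd1, mt-Atp8, mt-Nd6 and mt-Cytb. Most of these matches fell in a single block of 7 annotated pseudogenes at chr1:24611535-24616197, 4663 bases long, which includes Gm10222 and Gm28438. None of these 7 pseudogenes is listed among the genes with values. How the authors' counting divided shared reads is not given in the sources used here, so the levels of these genes are uncertain, and the part of the copies in the order per length was not tested.
Of 7 other copies that were counted, 2 reached a mean of 100 normalized counts. Gm13340 on chromosome 2 (chr2:22588103-22589647), which shares 27.5% of the windows of mt-Co1, had 75.3, 90.8 and 68.8 normalized counts in controls against 139, 69.7 and 170.3 under the E3–E12 diet. Gm4076 on chromosome 13 (chr13:85126550-85127514), which shares 4.11% of the windows of mt-Nd5, had 10.2, 231 and 5.61 in controls against 319, 12.4 and 36.8 under the E3–E12 diet.

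**Figure D3:**
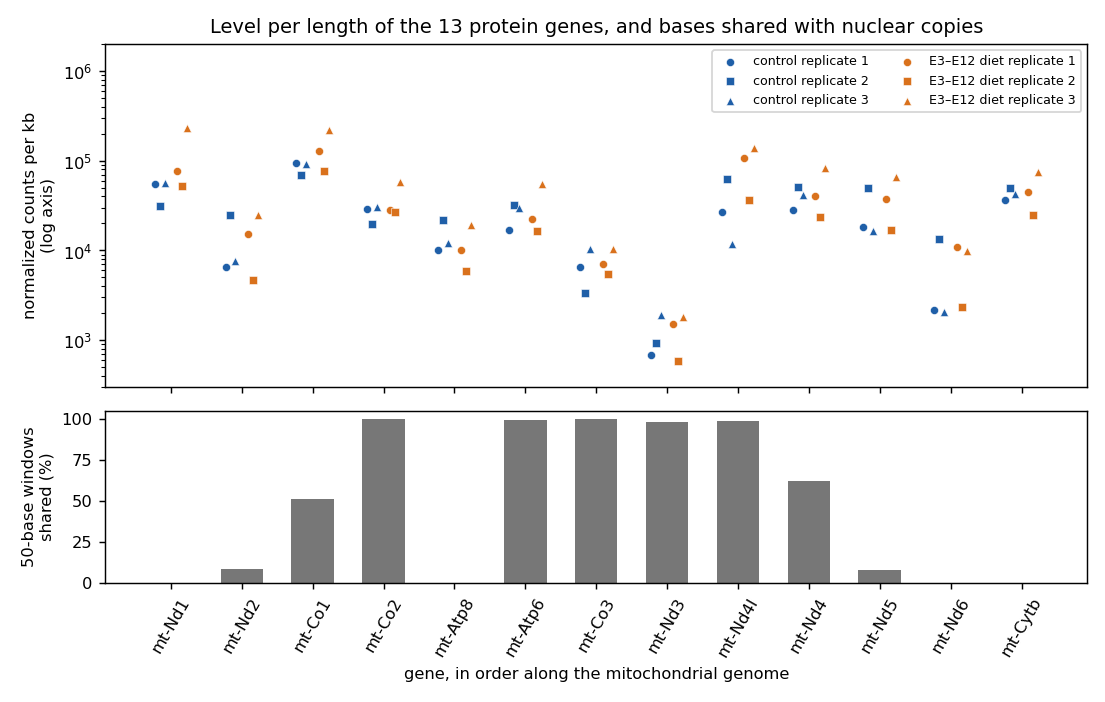
Top, normalized counts per kilobase (log axis) of the 13 protein genes in each of the 6 libraries; bottom, share of the 50-base windows of each gene (%) that also occur in an annotated gene outside the mitochondrial genome. mt-Nd3 has the lowest level and is shared to 98.0%, and mt-Co2 at 100% lies in the middle of the order.

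No mitochondrial transcript passed the limma test of the diets across all genes. The study itself used DESeq2, a model of read counts, at the same threshold on adjusted p. It listed Nd4l and ND1, here mt-Nd4l and mt-Nd1, as upregulated in E3–E12 diet mice. Those calls were not reproduced by limma on the normalized counts, and the reason was not tested. Of the 35 genes, 18 had a mean of at least 10 normalized counts and were tested: both rRNAs, all 13 protein genes and 3 tRNAs. On log2(normalized count + 1), limma with Benjamini-Hochberg adjustment over 18007 genes called 0 of the 18 at an adjusted p under 0.1, and 0 had an unadjusted p under 0.05. Over all genes tested the corresponding shares were 0% and 1.49%. The groups did not overlap in 0 of the 18, against 5.9% of all genes. Their adjusted p was 0.999 throughout. The p-values rest on the spread among these libraries, which limma estimates for each gene partly from the other genes.
In direction, 16 of the 18 had a higher and 2 (mt-Rnr1 and mt-Atp8) a lower mean log2 level than in controls, and mt-Rnr1 turned higher under each of 3 other scalings of the libraries. The median log2 fold change was 0.31 over the 18 and 0.26 over the protein genes, of which 12 were higher, against 0.087 over all genes tested, and the median standard error over the protein genes was 0.75. Relative to all genes, the protein gene median was 0.18 higher, between 0.19 and 0.43 higher under other scalings of the libraries, and below it without E3–E12 diet replicate 3 (-0.096). It was 0.52 higher without E3–E12 diet replicate 2 and 0.32 higher without control replicate 2, and 0.082 and 0.097 higher without control replicates 1 and 3. The protein gene median itself ran from 0.017 without E3–E12 diet replicate 3 to 0.64 without E3–E12 diet replicate 2. Scaling to the column total moved the median of all genes to 0.20. Fold changes on this scale and the counts of higher genes are therefore descriptions only.

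**Figure D4:**
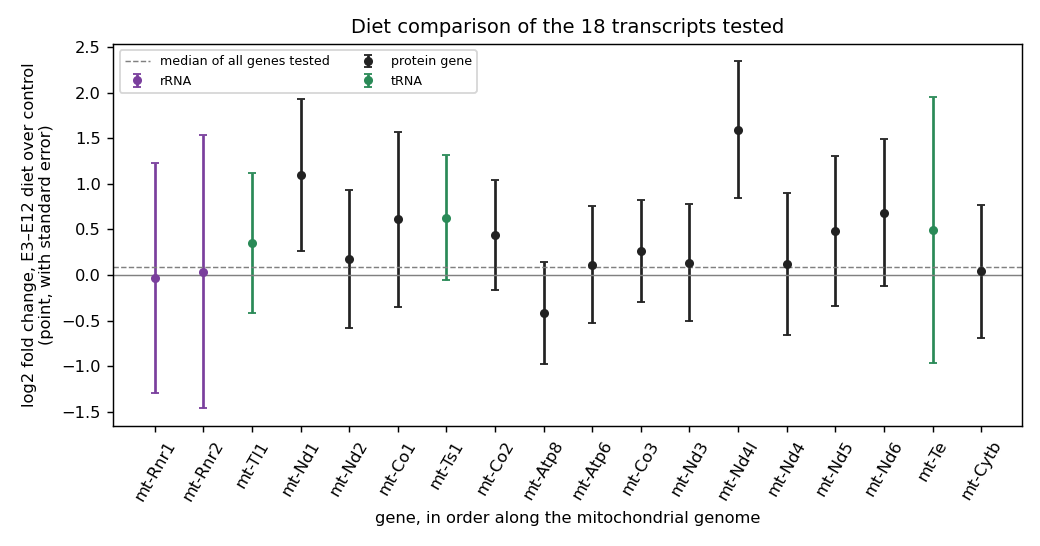
Log2 fold change between E3–E12 diet and control libraries, on log2(normalized count + 1), of the 18 genes tested, with its limma standard error as bars; the dashed line is the median of all 18007 genes tested. The bars of all genes but mt-Nd1 and mt-Nd4l cross 0.

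Complex I takes electrons from NADH, and 7 of its core subunits, mt-Nd1 to mt-Nd6 and mt-Nd4l, are mitochondrial. mt-Nd4l had 7866, 18545 and 3514 normalized counts in controls 1 to 3 against 31619.6, 10954 and 40791 under the E3–E12 diet. E3–E12 diet replicates 1 and 3 lay above all controls, and replicate 2 lay below control replicate 2. Its log2 fold change of 1.59 (standard error 0.75, unadjusted p = 0.0559, adjusted p = 0.999, limma) was the furthest from 0 of the 18, and it ranged from 1.001 without control replicate 3 to 2.20 without control replicate 2. Its unadjusted p was 0.0127 when libraries were scaled to the column total.
mt-Nd1, which shares no window with a nuclear copy, had 52990.4, 30108 and 53605 normalized counts in controls against 73845, 50206 and 224204 under the E3–E12 diet. Its high mean in E3–E12 diet mice rested on replicate 3, and its log2 fold change of 1.09 (standard error 0.83, adjusted p = 0.999, limma) was 0.47 without that library. mt-Nd4, the neighbour of mt-Nd4l on a shared mRNA, had 39174, 70774 and 57893 in controls against 55574, 32153 and 115579 under the E3–E12 diet. The groups overlapped for both genes.
Per length, mt-Nd4l stood at 93.2%, 122% and 28.2% of mt-Nd4 in controls 1 to 3 against at 264%, 158% and 164% under the E3–E12 diet. The groups did not overlap in this ratio, which was picked out of 10 ratios of pairs after its values were seen, so it was given no test. Both genes share most of their windows with the copies on chromosome 1.
mt-Nd5 had 33289.6, 90899 and 29932 normalized counts in controls against 67898, 30651 and 119972 under the E3–E12 diet. mt-Nd2 had 6728, 25742 and 7884 in controls against 15705, 4822 and 25823 under the E3–E12 diet. Both were high in control replicate 2 and in replicates 1 and 3 of the E3–E12 diet, and low in the other libraries. mt-Nd3, the least abundant protein gene, had 239.6, 322 and 670.0 in controls against 533, 203 and 636 under the E3–E12 diet.

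mt-Nd6 (chrM:13552-14070) is the only protein gene on the minus strand, and mt-Te lies directly before it on the same strand. mt-Nd6 had 1138, 6934 and 1075 normalized counts in controls against 5629.7, 1210.5 and 5152 under the E3–E12 diet. mt-Te had 8.66, 123 and 7.22 in controls against 99.5, 8.17 and 28.7 under the E3–E12 diet. Both were again highest in control replicate 2 and in the same E3–E12 diet libraries, and within each diet group the libraries differed by more than the group means did. As a share of the other 12 protein genes, mt-Nd6 was 0.311%, 1.57% and 0.271% in controls against 1.05%, 0.390% and 0.495% under the E3–E12 diet (log2 difference 0.21, exact permutation p = 0.8, adjusted p = 0.8). This difference was 1.02 without control replicate 2. mt-Nd6 lies opposite the end of mt-Nd5, with 14 bases in common, and whether the counting used strand is not given in the sources used here.

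Complex III passes electrons to cytochrome c and has 1 mitochondrial subunit, cytochrome b. mt-Cytb (chrM:14145-15288) had 41403, 57351 and 48439.9 normalized counts in controls against 51197, 28544 and 86015 under the E3–E12 diet, with overlap. As a share of the counts of the 13 protein genes it was 11.3%, 12.8% and 12.2% in controls 1 to 3 against 9.42%, 9.17% and 8.23% under the E3–E12 diet. Every E3–E12 diet library thus lay below every control in this share, with means of 8.94% ± 0.627 and 12.1% ± 0.751 (log2 difference -0.43, exact permutation p = 0.1, adjusted p = 0.65 over the 13 genes).
Complex V is ATP synthase, with the mitochondrial subunits mt-Atp8 and mt-Atp6. mt-Atp8 had 2068, 4472 and 2478 normalized counts in controls against 2072, 1196 and 3881 under the E3–E12 diet. Within the 13 protein genes it took 0.563%, 0.995% and 0.623% in controls against 0.381%, 0.384% and 0.371% under the E3–E12 diet. The E3–E12 diet libraries lay close together at 0.379% ± 0.00666, below all controls at 0.727% ± 0.234 (log2 difference -0.89, exact permutation p = 0.1, adjusted p = 0.65). mt-Atp6 took 3.17%, 4.82% and 5.04% in controls against 2.79%, 3.63% and 3.58% under the E3–E12 diet, and the groups overlapped.
mt-Cytb and mt-Atp8 were the 2 of the 13 genes whose shares did not overlap between diets, and both had the smallest p that 3 libraries against 3 allow. Neither passed the adjustment. On normalized counts, the groups did not overlap in 5.9% of all genes tested. The 13 shares add up to a fixed total and so depend on each other. With single libraries left out the log2 difference was -0.48 to -0.37 for mt-Cytb and -1.06 to -0.64 for mt-Atp8. On the normalized counts themselves the log2 fold changes were 0.04 (standard error 0.73) for mt-Cytb and -0.42 (standard error 0.56) for mt-Atp8, each with an adjusted p of 0.999 from limma. That of mt-Atp8 ranged from -0.85 without E3–E12 diet replicate 3 to -0.0027 without E3–E12 diet replicate 2, and was -0.090 without control replicate 2.

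**Figure D5:**
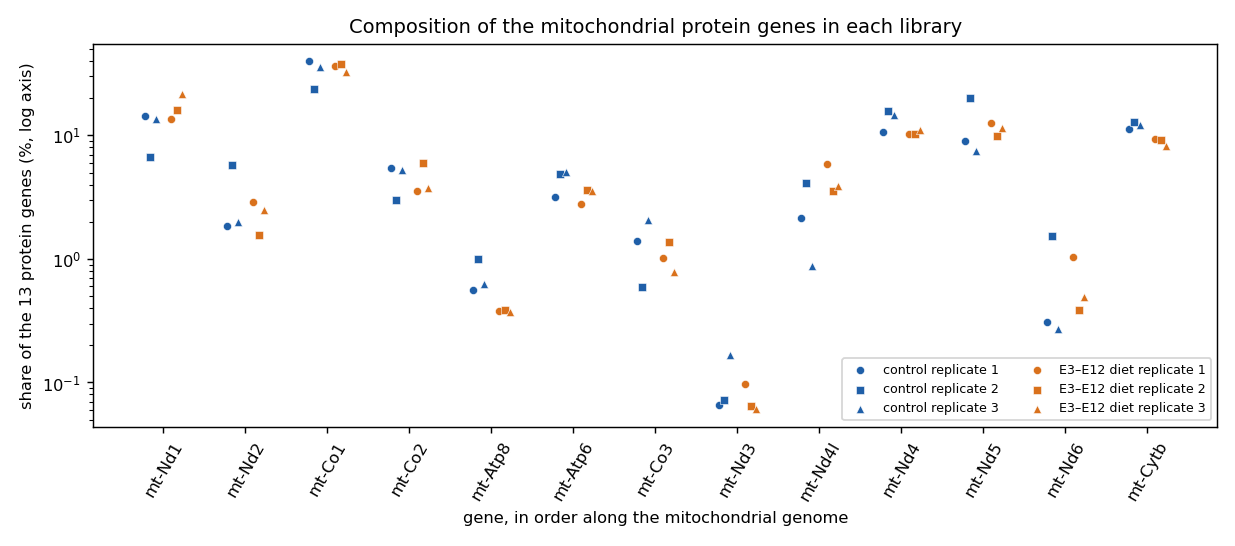
Share (%, log axis) that each of the 13 protein genes took of their summed normalized counts in each of the 6 libraries. mt-Atp8 and mt-Cytb are lower in all 3 E3–E12 diet libraries than in all 3 controls, and the other genes overlap.

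Complex IV, cytochrome c oxidase, has the mitochondrial subunits mt-Co1, mt-Co2 and mt-Co3. mt-Co1 had 145948, 106692 and 143235 normalized counts in controls against 199264, 117399.5 and 338479 under the E3–E12 diet. It took 39.7%, 23.7% and 36.0% of the protein gene counts in controls against 36.7%, 37.7% and 32.4% under the E3–E12 diet. Control replicate 2 alone stood low in this share. mt-Co2 had 19884, 13481 and 20896 normalized counts in controls against 19453, 18489 and 39125 under the E3–E12 diet. mt-Co3 had 5166, 2640.0 and 8190.2 in controls against 5547, 4279 and 8136 under the E3–E12 diet. All 3 subunit genes were lowest in control replicate 2, and the groups overlapped for each. By complex, and without correction for gene length, the protein gene counts split into 38.5%, 54.1% and 38.9% for complex I in controls against 46.1%, 41.8% and 50.9% under the E3–E12 diet, with complex IV at 46.5%, 27.3% and 43.3% and at 41.3%, 45.0% and 36.9%. The share of complex I was highest in control replicate 2, in which that of complex IV was lowest.

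The tRNAs were near the lower end of the measurement. Of the 20 tRNA genes, 17 had a mean under 10 normalized counts, from 0.554 to 9.05, and 12 were listed at 0 in at least 1 library. mt-Tg (glycine) was at 0 in each control library and at 2.19, 1.18 and 1.87 under the E3–E12 diet, levels too low to be tested. mt-Ts1, mt-Tl1 and mt-Te, printed above, made up 71.2% to 93.3% of the tRNA sum. mt-Ts1 had 146, 445 and 113 normalized counts in controls against 309, 199 and 442 under the E3–E12 diet (log2 fold change 0.63, standard error 0.69). mt-Tl1 had 70.6, 100.3 and 63.6 in controls against 78.0, 85.2 and 142 under the E3–E12 diet (log2 fold change 0.35, standard error 0.77). With 1 library left out, the fold change of mt-Ts1 ran from 0.24 without control replicate 3 to 1.22 without control replicate 2, and that of mt-Tl1 from 0.087 without E3–E12 diet replicate 3 to 0.54 without control replicate 2. Both overlapped between diets in normalized counts. mt-Ts1 was high in the same libraries as mt-Nd6, on the same strand, and as mt-Nd2 and mt-Nd5, on the other. The share of the library total held by mt-Tl1 did not overlap. It was 0.00073%, 0.00058% and 0.00053% in controls against 0.00083%, 0.00076% and 0.00097% under the E3–E12 diet. Of the 35 genes only mt-Tg also did so, beside 5.9% of all genes on normalized counts. limma on counts scaled to the column total gave mt-Tl1 an adjusted p of 0.9999. Per length mt-Ts1 stood at 3997, mt-Tl1 at 1200.0 and mt-Te at 664 normalized counts per kilobase, and of the protein genes only mt-Nd3 lay below mt-Ts1.

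None of the nuclear genes listed as serving the mitochondrial genome passed the test either. Of a list of 42 genes that copy, transcribe, cut, modify, degrade or bind mitochondrial DNA or its RNA, 40 passed the filter on low values. limma called 0 of them at an adjusted p under 0.1 and 0 at an unadjusted p under 0.05, against 0% and 1.49% of all genes tested. The groups did not overlap in 0 of them, against 5.9% of all genes. They were evenly split, 20 with a higher and 20 with a lower mean log2 level than in controls, with a median log2 fold change of -0.0043, beside 9797 higher and 8210 lower over all genes. For example, and chosen after their values were seen, Polrmt, the mitochondrial RNA polymerase, had 92.6, 118 and 129 normalized counts in controls against 89.1, 195 and 64.4 under the E3–E12 diet. Tfam, which packages mitochondrial DNA and starts its transcription, had 93.6, 633 and 84.7 in controls against 103, 19.8 and 38.9 under the E3–E12 diet. Lrpprc, which stabilises mitochondrial mRNAs, had 774, 2652 and 839 in controls against 1329, 755 and 924 under the E3–E12 diet. Tfam and Lrpprc were highest in control replicate 2, whereas others of the list, such as Mtpap and Tfb1m, were lowest there. Without that library the log2 fold change was -1.03 instead of -1.96 for Tfam and 0.27 instead of -0.30 for Lrpprc. The groups overlapped for Polrmt, Tfam and Lrpprc.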

How the data were processed

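RNA-seq of microglia was compared between 3 control and 3 E3–E12 diet libraries, grouped by their GEO labels. The authors deposited normalized counts per Ensembl gene, a signal unit that is scaled between libraries and no longer holds raw reads. The submitters' processing notes name FastQC, STAR, featureCounts, DESeq2 and GRCm38, and surrogate variables appear in the name of the table, with no description of an adjustment. The counted reads of each library could not be recovered, because at most 33.7% of the values of a library were whole multiples of 1 step (tolerance 0.02 of a step). Symbols were matched for 26507 genes. Genes with a mean of at least 10 were tested on log2(value + 1) with limma 3.58.1 in R 4.3.3. The test was two-sided, with a mean-variance trend in the prior variance, Benjamini-Hochberg adjustment and a threshold of 0.1. The fit was first tried on simulated data with large changes and less noise than these libraries. That trial does not show what size of change can be detected here. The trend was chosen after seeing the data. Shares and ratios were compared by exact permutation of the libraries. Sequences, gene lengths and 50-base windows came from GENCODE transcripts on GRCm38. Every mt- rRNA and protein gene is named, and most tRNAs are given only by counts and ranges. Of the nuclear list, genes with an unadjusted p under 0.05 or groups without overlap were to be named, and of the copies those with a mean of at least 100. The members and lists were chosen with earlier results of these data known.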

Additional observations from a re-analysis of the deposited data

How the results depend on the processing

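No mitochondrial transcript and no gene of the nuclear list passed an adjusted p of 0.1 in limma under any alternative run (pseudocount 10, 3 other scalings, no filter, no prior trend, replicate block, single libraries left out). Over all genes the count was 0, and 0 to 1 with a library left out (Bicra, named after its values were seen, without E3–E12 diet replicate 3). Members with an unadjusted p under 0.05 numbered 2 after scaling to the column total (mt-Nd1 and mt-Nd4l, beside 232 of 18007 genes), 1 after scaling to the total without the mitochondrial genes (beside 217), 1 after quantile normalization (beside 399) and 0 to 1 with a library left out (mt-Nd4l, without control replicate 2 or E3–E12 diet replicate 2, beside 377 and 188). The cause was not tested.
With the replicate number as a block, 0 genes passed, and 478 had an unadjusted p under 0.05 against 268 without it. In their share of the 13, 4 protein genes moved one way in all 3 same-numbered pairs. That is a looser count than the 2 without overlap, and it was not made over all genes. To look for pairs, the deviations of each library from the mean of its group were correlated, not the expression levels themselves. Same-numbered libraries had correlations of 0.260, 0.0348 and 0.142, and each E3–E12 diet library correlated best with its same-numbered control. Control replicate 2, however, correlated best with E3–E12 diet replicate 3 (0.0869). All these correlations were low, so whether the numbers mark pairs was not established. The block changed no call.
Leaving out 1 library turned several signs. The ranges were -1.52 to 4.84 points for the mitochondrial share, -2.98 to 2.56 points for the rRNA share, -0.031 to 0.18 for the log2 ratio of mt-Rnr2 to mt-Rnr1, -0.25 to 1.02 for that of mt-Nd6 to the other protein genes, and 2 to 6 for the number of protein genes without overlap in share (6 without control replicate 2, 5 without control replicate 1, 4 without E3–E12 diet replicate 1). Groups of fewer libraries separate more readily, so a higher number without overlap was not read as a result. Log2 fold changes ran from -0.52 to 0.37 for mt-Rnr1, -0.49 to 0.37 for mt-Rnr2, -0.35 to 0.86 for mt-Nd2, -0.39 to 0.47 for mt-Atp6, -0.17 to 0.65 for mt-Co3, -0.18 to 0.64 for mt-Nd3, -0.36 to 0.56 for mt-Nd4, -0.38 to 1.76 for mt-Te and -0.35 to 0.45 for mt-Cytb. Of those that kept their sign, mt-Nd5 ran from 0.023 (without E3–E12 diet replicate 3) to 1.01 (without E3–E12 diet replicate 2), mt-Nd6 from 0.22 (without control replicate 3) to 1.57 (without control replicate 2), and mt-Co1 from 0.23 to 0.99 and mt-Co2 from 0.095 to 0.64, in each case without E3–E12 diet replicate 3 and replicate 2 in turn. That of mt-Rnr1 (-0.033) was 0.087 scaled to the column total, 0.12 scaled without the mitochondrial genes and 0.38 after quantile normalization. The cause was not tested. Without the prior trend, the standard errors of mt-Rnr1 and mt-Rnr2 were 0.73 and 0.72 instead of 1.26 and 1.49. The counted reads per library were unknown. A log2 change as large as the median standard error of the protein genes was not detectable with these libraries, and larger ones also went uncalled. The change of 1.59 for mt-Nd4l had an adjusted p of 0.999 in limma, as did the smallest unadjusted p of all genes tested (0.000213). The lack of a call therefore does not bound the size of a change.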
